A study of Mus musculus with 30 samples.

Results

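The genes of potassium, sodium and voltage-gated calcium channels were examined in NOS1+ N1E115 cells, a mouse neuroblastoma line. Members were the protein-coding genes of the mm10 RefSeq annotation whose symbols begin with Kcn, with Scn and a number, or with Cacna, Cacnb or Cacng. The rule found 134 of the 21883 protein-coding genes on chromosomes 1 to 19, X and Y, and used no measured value. Cells of this 1 line were kept for 3 days at 4% O2 or at 20% O2, in both cases with 5% CO2 at ambient barometric pressure. Chromatin immunoprecipitation and sequencing was done with 6 antibodies, with 2 libraries per O2 level and antibody, which gives 24 libraries. The series also holds 6 input libraries, which were left out. Antibodies were directed against CTCF, an insulator protein, RAD21, a subunit of cohesin, H3K9ac, which is lysine 9 acetylation of histone H3, and POLR2, which is RNA polymerase II. Another pair of antibodies, POLR2S5 and POLR2S2, saw the polymerase with phosphate on serine 5 or on serine 2 of its tail. Both levels share the cell line and the NOS1+ state, so neither is an untreated control of the other. No separate cultures are named for the libraries of a group, so the p-values reflect library-to-library spread that could be purely technical.

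Pore-forming subunits of these channels let potassium, sodium or calcium ions cross the membrane down their gradients, and auxiliary subunits set how many channels reach the surface and how they open and close. Sodium channels carry the upstroke of the action potential, potassium channels bring the membrane back to rest, and calcium channels couple voltage to secretion and to signals inside the cell. Some potassium and calcium channels are known for a change in current when O2 falls, among them two-pore, Kv and large-conductance calcium-activated channels of chemoreceptor and vascular cells. H3K9ac is a mark of active promoters and enhancers. The serine 5 form of the polymerase is found mainly near gene starts, and the serine 2 form over the bodies of genes that are being elongated.

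The identity of the cells was checked on marker lists. H3K9ac peaks were present in all 4 libraries at 14 of 15 genes of sympathetic neuroblasts, and 6 of the 15 were covered by POLR2S2 islands. Of the markers of other cell types, 5 of 9 endothelial, 2 of 9 macrophage, 2 of 9 fibroblast, 1 of 7 astrocyte, 4 of 10 oligodendrocyte and Schwann and 2 of 9 muscle genes had H3K9ac in all 4 libraries. POLR2S2 covered 1 of the 9 macrophage and 2 of the 10 oligodendrocyte and Schwann genes in the same way, and none of the other lists. Over all protein-coding genes, 58.9% had H3K9ac in all 4 libraries and 18.5% were covered by POLR2S2. The endothelial count for H3K9ac was near this background. The lists are short, and their shares were not tested against those of all genes. The 12 polymerase lists differed in size. The POLR2 library of 20% O2 round 1 held 11172 islands over 59.5 Mb with 2057835 island reads. The other POLR2 libraries held 135.3 to 183.4 Mb and 5933802 to 10173255 reads. Round 1 of 20% O2 was also lowest for POLR2S5, at 154.2 Mb and 5926664 reads, against 214.4 to 258.0 Mb and 10979255 to 12374730 reads. For POLR2S2 it held 151.8 Mb and 4874802 reads, against 236.7 to 267.0 Mb and 9701942 to 16597869 reads. Rounds 1 and 2 are the replicate numbers, and each pair was sequenced on different flow cells. A polymerase count per gene in bulk cells does not tell apart fewer cells that transcribe the gene and less polymerase per cell.

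A gene was called marked by an antibody in a library when a peak or island touched the gene or 1 kb on either side of it. H3K9ac was called in all 4 libraries at 72 of the 134 channel genes (53.7%), against 58.9% of all protein-coding genes, and in no library at 43. POLR2 islands were called in all 4 libraries at 37 channel genes, against 42.2% of all genes. The small library set this count, with POLR2 islands at 73 and 74 channel genes in the 4% O2 libraries and at 42 and 81 in rounds 1 and 2 of 20% O2. Without 20% O2 round 1 it was 65. Over all genes the POLR2 calls were also fewest there, at 12716 and 13185 at 4% O2 and 9551 and 13450 at 20% O2. POLR2S5 islands were called in all 4 at 55 channel genes, against 52.7% of all genes, and POLR2S2 islands at 44, against 42.8%. Each of the 72 acetylated channel genes had an island of at least 1 polymerase form in at least 1 library. This is near the background, since 94 of all 12881 acetylated protein-coding genes had no such island. The channel genes are long, with a median window of 46.7 kb against 19.2 kb for all genes, so a longer stretch was open to a call. Within windows of 5 to 20 kb, 13 of 37 channel genes were acetylated in all 4 libraries, against 58.8% of all genes of that length. In windows of 20 to 50 kb the count was 17 of 29 (58.6%), against 71.1%, and in windows of 50 to 100 kb it was 17 of 22 (77.3%), against 75%. In windows of 100 to 200 kb it was 12 of 18 (66.7%), against 74.6%, and in those of 200 kb and more 13 of 26, against 62.4%.

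**Figure D1:**
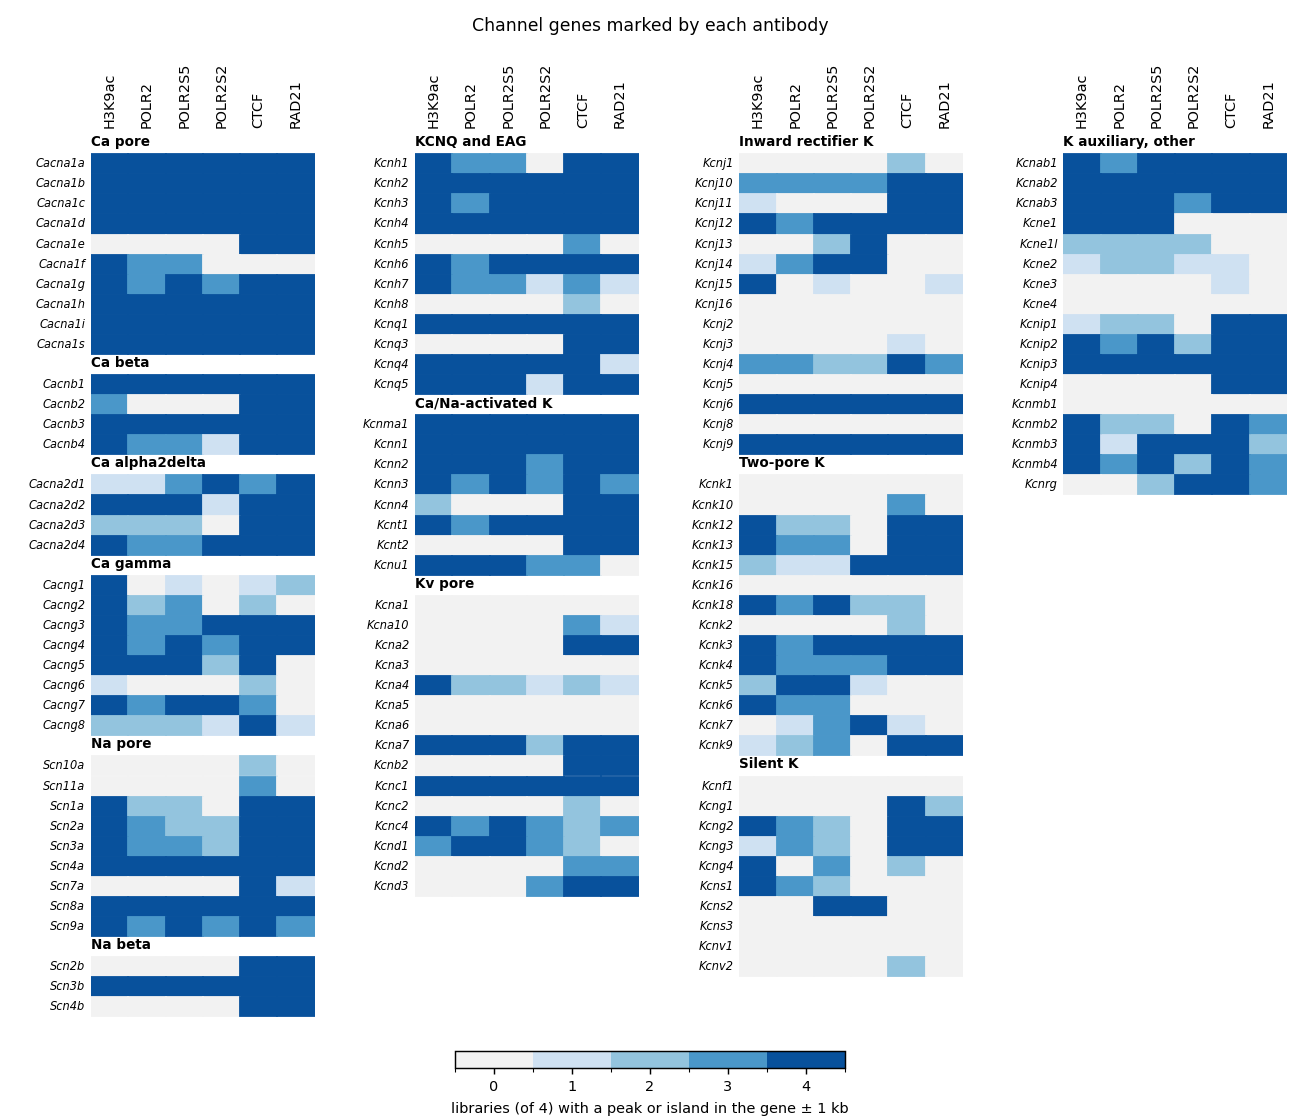
Number of libraries, from 0 to 4, in which each of 129 channel genes had a peak or island within the gene or 1 kb on either side. Rows are genes grouped by family, columns are antibodies, and darker blue stands for more libraries. The calcium pore subunits are dark for H3K9ac at 9 of 10 genes, while most Kv pore subunits of the Kcna group are blank for H3K9ac.

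The families differed in how many of their members were acetylated, against 58.9% of all protein-coding genes. These counts are not adjusted for window length, in which the families also differ. Windows ran from 30.1 to 612.1 kb at the calcium pore subunits and from 4.0 to 38.2 kb at the Kcna genes. Among the calcium pore subunits, 9 of 10 had H3K9ac in all 4 libraries, and Cacna1e, which carries R-type current, had H3K9ac and polymerase in none. Calcium beta subunits, which bring the pore to the membrane, were acetylated at 3 of 4 genes, and Cacnb2 had peaks in 3 libraries. The gamma subunits, several of which also bind AMPA receptors, were acetylated at 6 of 8. The alpha2delta subunits, some of which bind gabapentin, were acetylated at 2 of 4, Cacna2d2 and Cacna2d4.

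Of the 10 sodium pore subunits, 6 were acetylated in all 4 libraries: Scn1a, Scn2a, Scn3a, Scn4a, Scn8a and Scn9a. Scn7a, Scn10a and Scn11a had no H3K9ac, and Scn10a and Scn11a are known from nociceptive neurons. Scn4a and Scn8a had POLR2S2 in all 4 libraries, Scn9a in 3, Scn2a and Scn3a in 2 and Scn1a in none. Among the sodium beta subunits, Scn3b had H3K9ac and all 3 polymerase forms in all 4 libraries, and Scn2b and Scn4b had neither mark in any library.

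Among the potassium channels, the KCNQ and EAG family, which includes the M-current and ERG channels, was acetylated at 10 of 13 genes. The calcium- and sodium-activated channels were acetylated at 6 of 8. The Kv pore subunits were acetylated at 6 of 17, with no H3K9ac and no polymerase island in any library at Kcna1, Kcna2, Kcna3, Kcna5, Kcna6 and Kcna10. The inward rectifiers were acetylated at 4 of 15, namely Kcnj6, Kcnj9, Kcnj12 and Kcnj15. The two-pore channels, which set the resting potential, were acetylated at 6 of 14. The silent subunits, which form no channel alone, were acetylated at 3 of 10, and the auxiliary and other subunits at 9 of 17.

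At 38 channel genes neither H3K9ac nor any polymerase form was called in any library (28.4%), against 31.7% of all genes, a share near the background. Of the 38, 14 have windows of 100 kb or more. CTCF and RAD21 were both called in all 4 libraries at 8 of the 38: Cacna1e, Kcna2, Kcnb2, Kcnip4, Kcnq3, Kcnt2, Scn2b and Scn4b. The windows of Cacna1e, Kcnb2, Kcnip4, Kcnq3 and Kcnt2 are 302.3 to 1137.6 kb long. At 15 of the 38 no antibody gave a peak in any library. These CTCF and RAD21 counts are given without the share over all genes that lack H3K9ac and polymerase.

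RefSeq starts were available in the promoter table for 99 of the 134 channel genes, and at 48 of these a start in the table was also the end of the annotated gene. H3K9ac was called within 1 kb of a start in all 4 libraries at 32 of the 99 (32.3%), against 52.4% of all genes with a start in the table, and in no library at 56. Of the 72 acetylated genes, 49 had a start in the table. At 32 of these 49 the start itself was acetylated in all 4 libraries, at 6 in some libraries, and at 11 in none. Those 11 were Cacna1d, Cacna2d2, Cacng2, Kcnh1, Kcnh6, Kcnip2, Kcnj15, Kcnk12, Kcnk18, Kcnmb3 and Scn4a, whose peaks lay more than 1 kb from every start in the table. Starts outside the table were not examined, and the strongest H3K9ac region of Scn4a spans the annotated 5′ end of the gene. POLR2S5 was called within 1 kb of a start in all 4 libraries at 20 of the 99 genes, against 44.6% of all genes, POLR2 at 13, against 36.3%, and POLR2S2 at 6, against 21.9%.

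Promoter sequence is printed for 2 channel genes, Cacna1b, the N-type calcium channel, and Kcnj9, a subunit of G protein-gated inward rectifiers. Both carried H3K9ac at the start in all 4 libraries and POLR2S2 islands over at least 50% of the window. The lines give the bases before the start that lie in no annotated gene, 5′ to 3′ on the gene's strand, from RefSeq GRCm38.p6, which is mm10. Capitals mark the cores ACGTG and GCGTG on either strand, the letters that hypoxia-inducible factors are known to bind. The palindrome CACGTG holds ACGTG on both strands.
Cacna1b (chr2:24763201-24763402, minus strand): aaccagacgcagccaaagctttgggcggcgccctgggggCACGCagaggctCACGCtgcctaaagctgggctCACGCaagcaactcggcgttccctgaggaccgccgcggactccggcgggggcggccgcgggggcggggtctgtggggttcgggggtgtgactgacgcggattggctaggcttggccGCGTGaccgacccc
Kcnj9 (chr1:172329323-172329572, minus strand): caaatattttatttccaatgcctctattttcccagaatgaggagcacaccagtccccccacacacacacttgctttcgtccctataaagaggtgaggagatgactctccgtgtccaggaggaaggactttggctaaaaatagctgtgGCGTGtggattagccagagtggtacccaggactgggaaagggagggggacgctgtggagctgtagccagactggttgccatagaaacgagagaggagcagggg
The Cacna1b stretch of 202 bases held 4 such cores and 23 CpG dinucleotides. The Kcnj9 stretch of 250 bases held 1 core and 5 CpG. Over the windows of 300 bases in the table (250 before to 50 after the start), either core was present in 17 of 40 promoters of channel genes with H3K9ac at the start in all 4 libraries (42.5%) and in 40 of 81 with H3K9ac in none (49.4%). Across all protein-coding genes it was present in 49.3% of promoters, in 64.8% of those acetylated in all 4 libraries and in 30.7% of those acetylated in none. A match of these letters is a description and does not show that a factor bound there. The median CpG number in 300 bases was 16.5 for acetylated channel promoters and 9 for those without H3K9ac. The corresponding medians over all promoters were 22 and 3.

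Coverage by POLR2S2 was used to say which channel genes carried elongating polymerase over their bodies. Islands of this form covered at least 50% of the window in all 4 libraries at 9 of the 134 channel genes, against 18.5% of all genes. Of these, 7 were also acetylated in all 4 libraries, against 17.5% of all genes, and they included Cacna1b, Cacna1h, Cacnb1, Kcnh4, Kcnj9 and Scn3b. At the other 65 acetylated channel genes polymerase was called in at least 1 library, and POLR2S2 covered less than 50% of the window in at least 1 library. Coverage falls with length in all genes, from 28% of genes covered in windows of 5 to 20 kb to 1% in windows of 200 kb and more. Of the channel genes, 3 of 37 were covered in windows of 5 to 20 kb, against that 28%. In windows of 20 to 50 kb it was 3 of 29, against 19.3%. In windows of 50 to 100 kb it was 2 of 22, against 9.9%. In windows of 100 to 200 kb it was 1 of 18, against 4.85%, and in longer ones 0 of 26, against 1%. Without 20% O2 round 1 the count of acetylated and covered channel genes was 11 in place of 7.

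**Figure D2:**
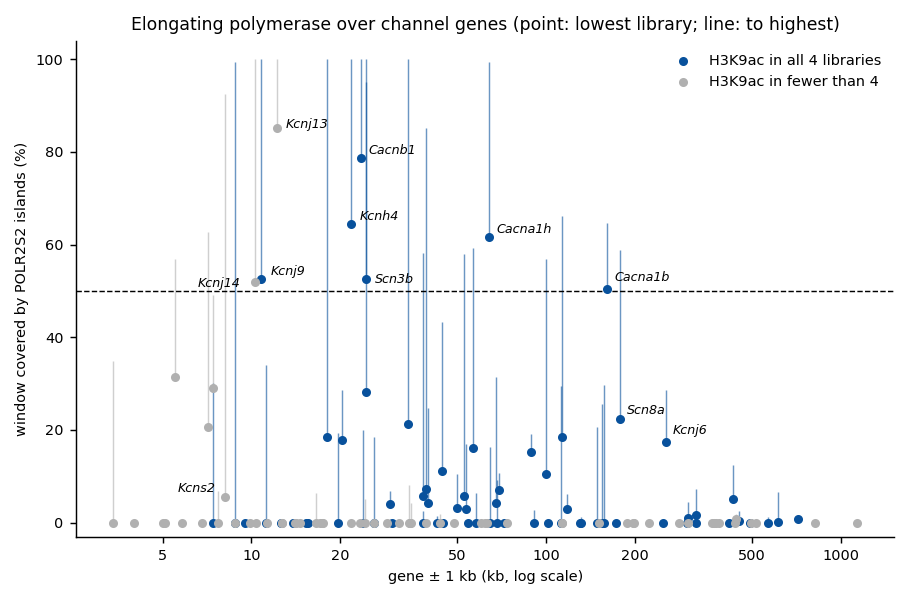
Share of the gene window covered by POLR2S2 islands, in percent, against the length of the window in kb on a log scale, for 129 channel genes. Each point is the library with the lowest coverage and each line reaches to the library with the highest; blue genes had H3K9ac in all 4 libraries. The genes above the dashed line at 50% include Cacna1b, whose window is 161.3 kb long.

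Cacna1b was the longest covered channel gene (chr2:24603860-24763200). POLR2S2 islands covered 50.5% and 62.7% of its window in the 4% O2 libraries and 53.9% and 64.7% in the 20% O2 libraries, and the O2 levels overlapped. Cacna1h, a T-type calcium channel that opens at low voltage (chr17:25374285-25436334), was covered over 97.3% and 99.5% at 4% O2 and over 61.7% and 95.4% at 20% O2. The lowest of the 4 values was that of 20% O2 round 1. The window of Cacna1h also holds Tpsg1.

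Scn3b, an auxiliary subunit of sodium channels (chr9:40269216-40291618), was covered over its whole window in 3 libraries and over 52.5% in 20% O2 round 1. Kcnh4 (chr11:100740378-100760115) was covered in full in both round 2 libraries, over 92.6% in 4% O2 round 1 and over 64.5% in 20% O2 round 1.

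Some covered windows hold a second gene, whose polymerase cannot be told apart from that of the channel. Among the 9 covered genes 5 have another protein-coding gene in the window. Kcnj13 and Kcnj14 were covered by POLR2S2 in all 4 libraries, with H3K9ac in 0 and 1 libraries, and their windows touch Gigyf2 and Grwd1. The window of Cacnb1 touches Rpl19, a ribosomal protein gene, and that of Kcnj9 touches Igsf8. POLR2S2 was called in all 4 libraries with no H3K9ac in any at Kcnj13, Kcnk7, Kcnrg and Kcns2, and 3 of these 4 have another gene in the window; Kcns2 does not.

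Polymerase levels between genes were compared per length, as RPKM, that is, island reads per kb of window scaled to the library's total of island reads, averaged over the 4 libraries. For POLR2S2 the highest channel genes were Cacnb1 at 5.59, Cacna1h at 5.17, Kcnh2 at 3.88, Kcnj13 at 3.81, Kcnj9 at 3.74 and Scn3b at 3.6. Cacnb1 had 7.3 and 5.59 with 4% O2 and 5.63 and 3.84 with 20% O2. Cacna1h had 5.92 and 5.91 with 4% O2 and 4.28 and 4.57 with 20% O2. Kcnh2, the ERG channel that repolarises the heart, gave 4.03 and 5.62 at 4% O2 and 1.21 and 4.66 at 20% O2. The values of Cacnb1 and Cacna1h overlap, as do those of the 4 genes after them, so these neighbours in the order were not separated.

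For POLR2S5 the 6 highest were Cacnb1 at 5.94, Kcnh2 at 5.0, Cacna1h at 4.42, Cacnb3 at 4.29, Kcnn1 at 4.25 and Kcnh4 at 4.09. For POLR2 the highest included Kcnab3 at 6.47, Kcnn1 at 6.24, Cacnb1 at 5.92, Cacnb3 at 5.07 and Kcnh2 at 4.86. Kcnn1 is a small-conductance calcium-activated potassium channel, Cacnb3 a calcium channel beta subunit and Kcnab3 a cytoplasmic beta subunit of Kv channels. The windows of Kcnab3 and Cacnb3 touch Trappc1 and Ddx23, respectively. Long pore genes were far lower per kb: Kcnma1, the large-conductance calcium-activated potassium channel, had 0.09 for POLR2 and 0.02 for POLR2S2, and Cacna1c, an L-type calcium channel, had 0.26 and 0.1.

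By the mean of the 4 libraries, H3K9ac covered the most sequence at Cacna1h, with 18.0 and 31.9 kb at 4% O2 and 11.0 and 31.3 kb at 20% O2. Cacna1c was close behind in the mean and exceeded Cacna1h in both round 1 libraries, with 18.8 and 28.2 kb at 4% O2 and 19.1 and 24.5 kb at 20% O2. The round 2 libraries covered more than the round 1 libraries at both levels for these genes, while the O2 levels overlapped. Kcnma1 had 12 separate acetylated regions called in all 4 libraries, Cacna1a, the P/Q-type calcium channel, had 11, and Cacna1c and Kcnn3 had 10 each.

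The second question was how 4% O2 differed from 20% O2. Few channel genes were marked at 1 level only, that is, in both libraries of that level and in neither of the other. For H3K9ac, Kcnn4, a calcium-activated channel of intermediate conductance, was called only at 20% O2, against 0.219% of all genes, and no channel gene only at 4% O2, against 0.0503%. The Kcnn4 peaks covered 0.2 kb in each 20% O2 library. With 5 kb on each side no channel gene was called for H3K9ac only at 20% O2. For POLR2, Kcne2 was called only at 4% O2 (0.27% of all genes), with 18 and 105 island reads, and none only at 20% O2 (0.16%). Kcne2 is a small auxiliary subunit with a single membrane span. No POLR2 island lay within 1 kb of a listed Kcne2 start in any library. Without the flank, and also with 5 kb on each side, no channel gene was called for POLR2 only at 4% O2.

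For POLR2S5, Scn1a was called only at 20% O2 (0.251% of all genes), with 25 and 42 island reads, and none only at 4% O2 (0.16%). For POLR2S2, Kcna7 and Kcnip2 were called only at 4% O2, a share of 1.49% of channel genes against 1.49% of all genes, and none only at 20% O2 (0.178%). Kcna7 had 21 and 69 island reads in the 4% O2 libraries and Kcnip2, a calcium-binding partner of Kv4 channels, had 24 and 204. The window of Kcnip2 touches Armh3, and no POLR2S2 island lay within 1 kb of the Kcnip2 start in any library. CTCF was specific to 4% or 20% O2 at no channel gene (0.434% and 0.0366% of all genes), and neither was RAD21 (0.425% and 0.631%). Leaving out 20% O2 round 2 leaves round 1 alone at that level. Then 29 channel genes were called only at 4% O2 for POLR2, 12 for POLR2S5 and 10 for POLR2S2. These counts are given without the share over all genes. Round 1 of 20% O2 had POLR2 calls at 9551 of all genes, against 12716 and 13185 at 4% O2. A gain particular to channel genes therefore cannot be read from these counts. An island that was not called is not a count of 0. With 2 libraries against 2, an exact permutation test cannot reach a p of 0.05.

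Island reads were then compared with edgeR's quasi-likelihood test, fitted to all genes with an island in all 4 libraries of a form. That admitted 37 channel genes of 9239 genes for POLR2, 55 of 11529 for POLR2S5 and 44 of 9360 for POLR2S2. No channel gene passed a Benjamini-Hochberg adjusted p of 0.05 for any form (0% of all genes, higher or lower). Among channel genes the unadjusted p was under 0.05 at 0 of 37 for POLR2, 3 of 55 for POLR2S5 and 4 of 44 for POLR2S2, against 232, 342 and 426 of all genes tested. DESeq2 also called 0 channel genes for each form, while over all genes it called 53, 18 and 72. The smallest adjusted p of a channel gene in edgeR was 0.98 for POLR2, 0.998 for POLR2S5 and 0.929 for POLR2S2.

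**Figure D3:**
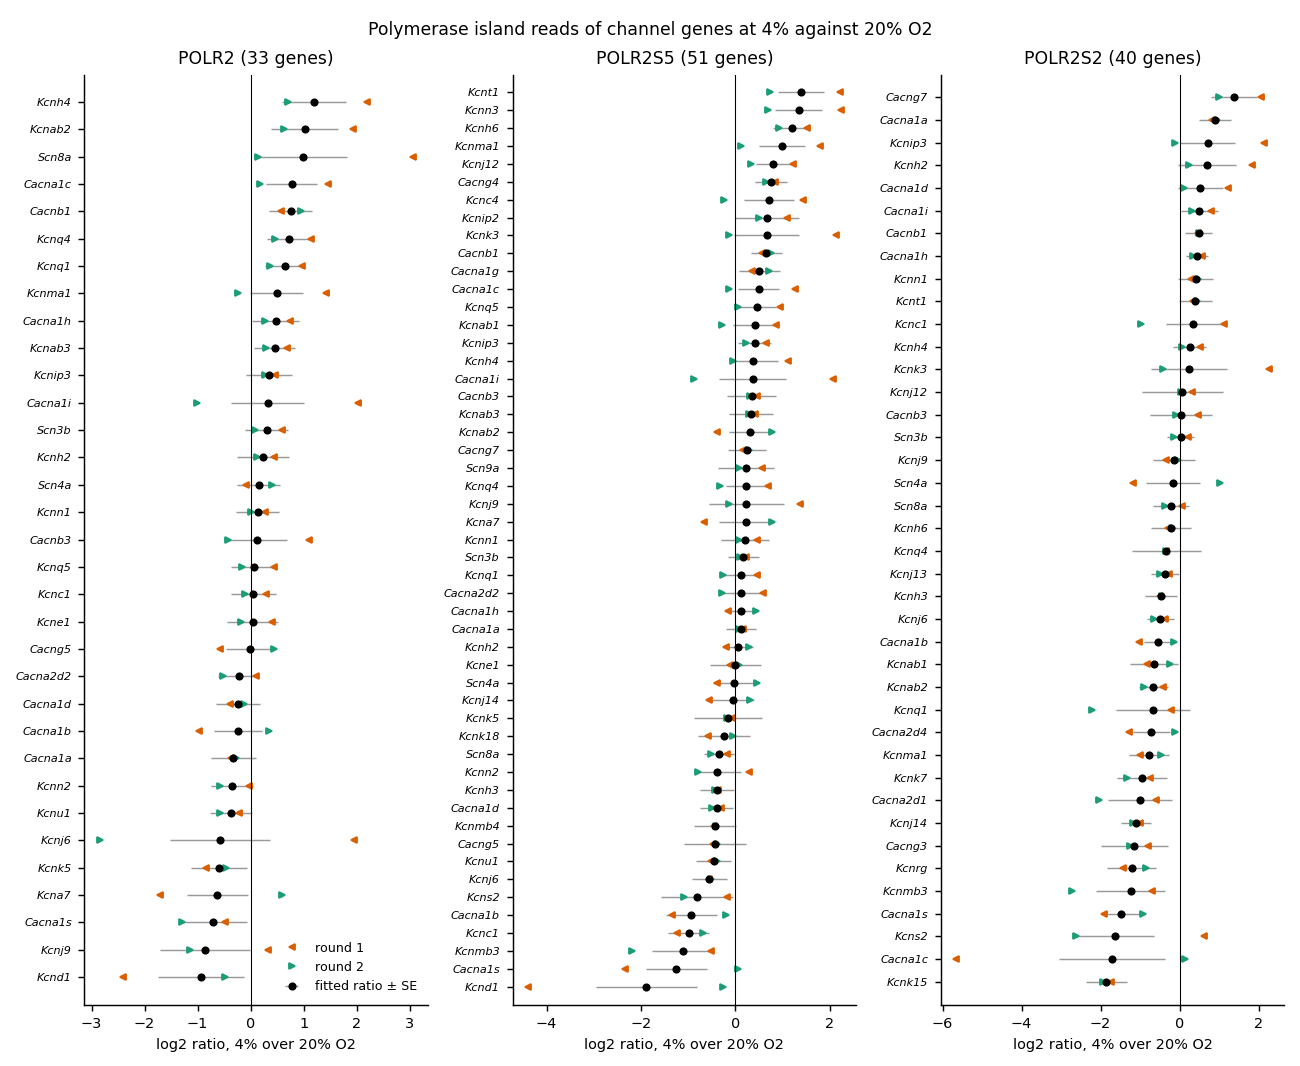
Log2 ratio of island reads, 4% over 20% O2, for 33 channel genes in POLR2, 51 in POLR2S5 and 40 in POLR2S2. Black points are the edgeR ratios with their standard errors and orange and green triangles are the ratios within round 1 and round 2. No ratio passed the adjusted threshold, and the rounds are often far apart, as for Scn8a in POLR2.

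For POLR2, both 4% O2 libraries exceeded both 20% O2 libraries at 12 of the 37 channel genes (32.4%), against 15.5% of all genes tested, and lay below them at 1 (2.7%), against 15.9%. The median log2 ratio was 0.11 for the channel genes and -0.04 for all genes. Within round 1 the median of channel genes was 0.43, with 64.9% of them above 0, and within round 2 it was 0.12, with 56.8% above 0. The small 20% O2 round 1 library moves with this result, and without it the median was 0.02 for the channel genes and 0.02 for all genes. Without 20% O2 round 2 the median was 0.57. Per kb of island the median was -0.37, against -0.44 for all genes, so the sign depended on the scale while the channel genes stood above all genes on both.

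For POLR2S5, 12 of 55 channel genes were higher in both 4% O2 libraries (21.8%), against 14.7% of all genes, and 9 were lower (16.4%), against 15%. The median log2 ratio was 0.23 for the channel genes and -0.03 for all genes, and it was 0.29 within round 1 and 0.07 within round 2. Without 20% O2 round 1 it was 0.03, against 0.02 for all genes. Per kb of island it was -0.15, against -0.2 for all genes, so its sign also depended on the scale. For POLR2S2, 6 of 44 channel genes were higher (13.6%), against 18.6% of all genes, and 14 were lower (31.8%), against 17.4%. Here the median was -0.19 for the channel genes and -0.02 for all genes, with -0.24 within round 1 and -0.14 within round 2. Without 20% O2 round 1 this median was -0.31, and without 20% O2 round 2 it was 0.07. Per kb of island it was -0.43, against -0.3 for all genes.

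Ratios of single genes also depended on how islands were counted. With whole islands in place of the part inside the window, the ratio changed sign at 8 of 37 channel genes for POLR2, 11 of 55 for POLR2S5 and 11 of 44 for POLR2S2. Per kb of island it changed sign at 22, 32 and 18, on a scale whose all-gene medians are those given above.

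Of the 27 channel genes tested for all 3 forms, 11 had ratios above 0 in all 3 (40.7%), against 26.1% of the 7298 genes so tested, and 4 had ratios below 0 in all 3 (14.8%), against 30.3%. Both 4% O2 libraries exceeded both 20% O2 libraries for all 3 forms at 2 genes, of which Cacnb1 is described (7.41%, against 4.21% of all genes), and the reverse held at 0 (2.63% of all genes). Cacnb1 was picked out here after its values were seen. The 3 forms were precipitated with separate antibodies but compare the same 2 conditions. For each form 20% O2 round 1 had the fewest island reads. These 3-form counts are given for the main fit only, not without that library or per kb of island.

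Cacnb1, a beta subunit of calcium channels (chr11:98001508-98023034), had POLR2 levels, in log2 CPM of island reads after TMM scaling, of 7.46 and 7.43 with 4% O2 and of 6.88 and 6.49 with 20% O2. For POLR2S5 they were 7.52 and 7.3 against 6.96 and 6.55, and for POLR2S2 7.41 and 7.08 against 6.94 and 6.58. The groups did not overlap for any form. The POLR2 difference was 0.75 ± 0.41 (SE), that of POLR2S5 0.65 ± 0.33 and that of POLR2S2 0.49 ± 0.34, each with n = 2 per level. The edgeR adjusted p was 0.98, 0.998 and 0.929 for these forms, so no form of Cacnb1 passed the adjusted threshold, and Rpl19 lies in the same window. With whole islands the differences were 0.14 for POLR2, 0.15 for POLR2S5 and 0.44 for POLR2S2. Per kb of island they were -0.66, 0.47 and 0.27, so the sign turned for POLR2. The strongest H3K9ac region of Cacnb1 (chr11:98018839-98023977) ranked at percentiles 96.0 and 85.3 at 4% O2 and 79.7 and 66.9 at 20% O2.

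**Figure D4:**
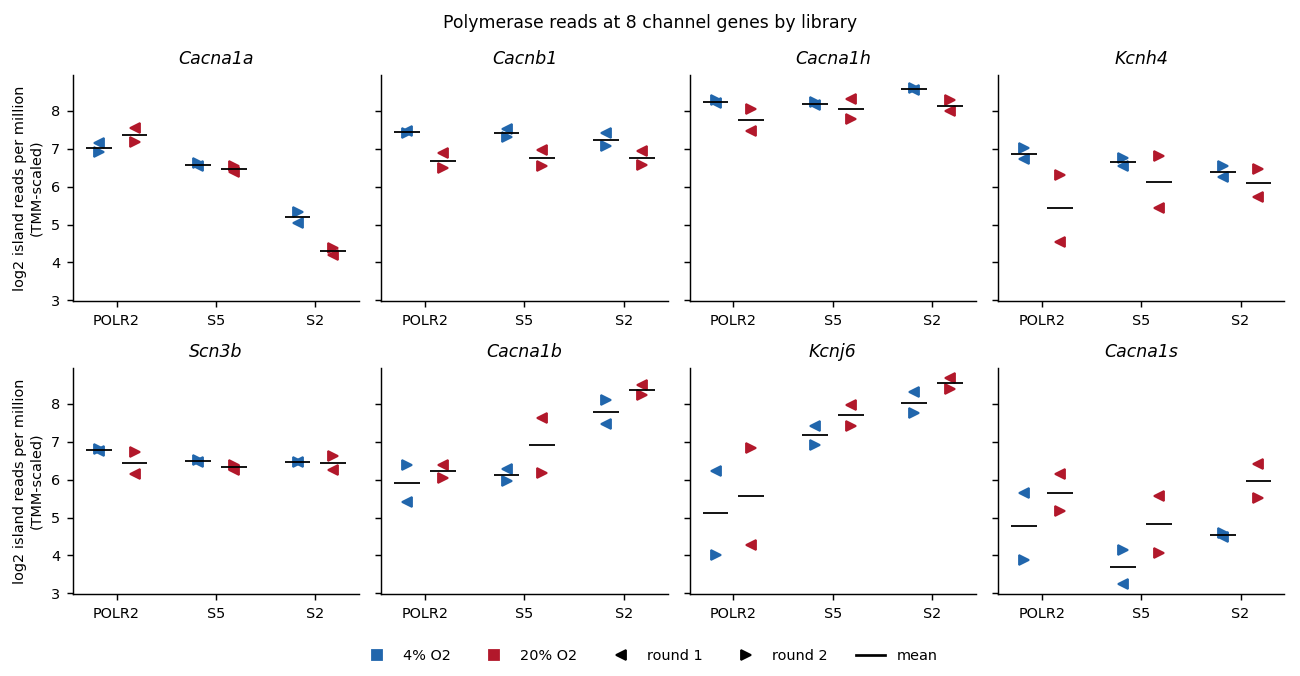
TMM-scaled log2 CPM of island reads for POLR2, POLR2S5 (S5) and POLR2S2 (S2) at 8 channel genes, with blue for 4% O2 and red for 20% O2. Triangles point left for round 1 and right for round 2, and bars are means of the 2 libraries. Cacnb1 is higher in both 4% O2 libraries for all 3 forms, whereas the Scn3b values for POLR2S2 overlap.

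Among the other genes with large POLR2S2 differences, Cacng7, a gamma subunit that also binds AMPA receptors, had levels of 5.3 and 5.62 at 4% O2 and 3.23 and 4.63 at 20% O2. Its difference was 1.38 ± 0.59, and its window touches another protein-coding gene. The difference was -0.56 per kb of island. Cacna1a was at 5.04 and 5.34 at 4% O2 and 4.21 and 4.38 at 20% O2. Its difference was 0.9 ± 0.4, or -0.38 per kb of island, with POLR2S2 islands over only 1.1 to 4.5% of the window. For POLR2, in contrast, Cacna1a was lower in both 4% O2 libraries, with a difference of -0.33, and it was the 1 channel gene below.

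The lower POLR2S2 ratios included genes with few reads or neighbours. Kcnk15, a two-pore channel whose window touches Rims4, had levels of 2.02 and 2.32 at 4% O2 and 3.74 and 4.26 at 20% O2, a log2 difference of -1.85 ± 0.52 (unadjusted p = 0.0159, edgeR adjusted p = 0.929). With whole islands this difference was 0.08 and per kb of island -0.53, so the direction was lost when the island was not shared out. Cacna1s, the L-type channel of skeletal muscle (chr1:136052806-136119822), was at 4.49 and 4.59 at 4% O2 and 6.41 and 5.51 at 20% O2. The groups did not overlap, and the difference was -1.48 ± 0.46 (unadjusted p = 0.0235), against -0.29 with whole islands and -0.95 per kb of island. Cacna1s was also lower by ratio for POLR2S5 at -1.25 and for POLR2 at -0.71. For these forms the libraries of the levels overlapped, and the ratios with whole islands were 0.0 and -0.01. Within 1 kb of the listed Cacna1s start, H3K9ac was called in 1 library and no polymerase form in any. POLR2S2 covered only 7.0 to 10.8% of the window. The H3K9ac region shared by all 4 libraries (chr1:136119084-136120897) crossed the gene end at the higher coordinate. Whether these reads reflect transcription of Cacna1s was not tested. Kcnj14 differed by -1.1 ± 0.39, Kcnmb3, a BK channel beta subunit beside Pik3ca, by -1.24 ± 0.87 and Kcnrg, beside Trim13, by -1.21 ± 0.62. With whole islands these were -0.42, -0.16 and -1.82, and per kb of island -0.36, -0.42 and -0.63.

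Cacna1c, whose window touches Dcp1b, differed widely between libraries. Its POLR2S2 levels of 1.44 and 5.77 with 4% O2 overlapped those of 7.09 and 5.63 with 20% O2, and 28 island reads in 4% O2 round 1 stood against 877 in round 2. Without 4% O2 round 2 the difference was -5.11 with an edgeR adjusted p of 0.0167, the only pass of a channel gene among the alternative fits run. With all 4 libraries it was -1.7 ± 1.34 with an adjusted p of 0.929, and per kb of island it was -0.5. For POLR2 the same gene was at 7.92 and 7.46 at 4% O2 and 6.48 and 7.29 at 20% O2, a difference of 0.77 ± 0.48, or -0.66 per kb of island.

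For POLR2S5, 3 channel genes had an unadjusted p under 0.05. Kcnt1, a sodium-activated potassium channel, had levels of 5.9 and 5.44 at 4% O2 and 3.69 and 4.72 at 20% O2, a difference of 1.39 ± 0.48 (unadjusted p = 0.0297, edgeR adjusted p = 0.998). Kcnn3, a small-conductance calcium-activated channel, was at 6.66 and 6.35 against 4.43 and 5.65, a difference of 1.34 ± 0.5. Kcnh6, an ERG channel whose window touches Ace3, was at 5.03 and 5.01 against 3.52 and 4.08, a difference of 1.19 ± 0.4. The levels of these 3 genes did not overlap between O2 levels. For each gene the ratio was larger in round 1, whose 20% O2 library had the fewest POLR2S5 island reads, than in round 2. The ratios were 2.21 against 0.73 for Kcnt1, 2.23 against 0.69 for Kcnn3 and 1.51 against 0.93 for Kcnh6. With whole islands the differences were 0.43 for Kcnt1, 1.45 for Kcnn3 and 0.12 for Kcnh6. All 3 turned sign per kb of island, to -0.17, -0.78 and -0.41.

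The lowest POLR2S5 ratios of 1 sign in both rounds were those of Kcnd1 at -1.89, Kcnmb3 at -1.11, Kcnc1 at -0.99 and Cacna1b at -0.94. Kcnd1, a Kv4 channel, had 2 to 30 island reads in the 4 libraries. Kcnd1, Kcnmb3 and Kcnc1, a Kv3 channel of fast-firing neurons, were lower in both 4% O2 libraries, while Cacna1b overlapped. The 4 ratios were 0.63, 0.03, -0.04 and 0.02 per kb of island, and with whole islands that of Kcnd1 was -0.78. Cacna1b was below in both 4% O2 libraries for POLR2S2, at 7.46 and 8.1 against 8.49 and 8.23, a difference of -0.55 ± 0.35. For POLR2, among ratios of 1 sign in both rounds, the largest were those of Kcnh4 at 1.19 ± 0.6, Kcnab2 at 1.02 ± 0.63, Scn8a at 0.98 ± 0.83 and Cacna1c, and the lowest those of Kcnd1 at -0.94, Cacna1s at -0.71, Kcnk5 at -0.6 and Kcnu1 at -0.37. Kcnh4 had 599 and 1171 POLR2 reads at 4% O2 and 64 and 608 at 20% O2. Its ratio was 2.19 within round 1 and 0.7 within round 2. The Scn8a ratio was 3.05 within round 1 and 0.14 within round 2. Per kb of island the ratios of Kcnh4, Kcnab2 and Scn8a were -0.43, -0.97 and -0.37, and with whole islands that of Kcnh4 was 0.45 and that of Scn8a 1.7. For Kcnd1 and Cacna1s they were -0.09 and -0.15 per kb, and for Kcnu1 0.13 with whole islands. The window of Kcnab2 touches Chd5 and Nphp4, and that of Kcnu1 touches Ash2l.

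H3K9ac was compared by rank, since its peak scores serve only to order peaks within a library. Each region called in all 4 libraries was given its percentile among 39931 such regions in each library. The 227 regions at channel genes had a median difference, 4% minus 20% O2, of 0.68 percentile points, against 0.14 over all regions and 0.88 over the regions in any gene window, with 0.86 in round 1 and 0.49 in round 2. Both 4% O2 libraries ranked above both 20% O2 libraries at 16.7% of channel regions, against 13.9% of all regions and 14.3% of those in gene windows, and below at 14.5%, against 13.1% and 11.8%. These shares are near the background. Ranked among regions in gene windows alone, the median difference was -0.15. It was -1.68 without 4% O2 round 2 and 3.05 without 20% O2 round 2.

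**Figure D5:**
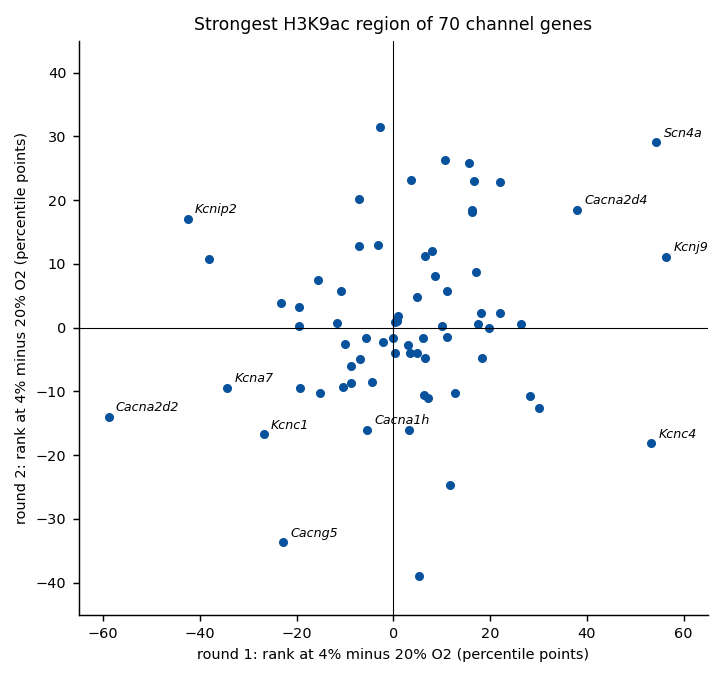
Difference in percentile rank, 4% minus 20% O2, of the strongest H3K9ac region of 70 channel genes, with round 1 on the x axis and round 2 on the y axis, in percentile points. Each point is 1 gene. Scn4a is far to the upper right and Cacna2d2 and Cacng5 to the lower left, while Kcnc4 and Kcnip2 differ in sign between rounds.

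At the strongest region of each gene, the largest differences of 1 sign in both rounds included those of Scn4a, Kcnj9 at 33.8 and Cacna2d4 at 28.3. Scn4a, the sodium channel of skeletal muscle, had ranks of 70.7 and 82.7 for 4% O2 against 16.3 and 53.6 for 20% O2 (chr11:106364078-106366459), a difference of 41.8. Its libraries did not overlap between the levels. The other Scn4a regions called in all 4 libraries went the opposite way, at -18.5 and -27.6, also without overlap. Kcnj9, at 83.8 and 98.4 against 27.4 and 87.3, and Cacna2d4, at 39.7 and 69.6 against 1.7 and 51.2, overlapped. The window of Cacna2d4 touches Adipor2 and Lrtm2.

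The largest negative differences were those of Cacna2d2 at -36.4, Cacng5 at -28.3, Kcna7 at -21.8 and Kcnc1 at -21.7. Cacna2d2 had ranks of 0.9 and 33.6 for 4% O2 against 59.8 and 47.6 for 20% O2 (chr9:107521250-107522930). Cacng5 ranked at 0.3 and 5.0 against 23.1 and 38.7, and Kcna7 at 35.6 and 32.8 against 69.9 and 42.2. The levels did not overlap at these 3 genes and overlapped at Kcnc1. No test was made of single ranks.

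Some members are linked to O2 in other cells. Kcnk2 and Kcna5, a two-pore and a Kv1 channel, had neither H3K9ac nor polymerase in any library. Kcnk9, a TASK channel, had H3K9ac in 1 library, POLR2 in 2, POLR2S5 in 3 and POLR2S2 in none. Kcnk3, also a TASK channel, was acetylated and carried POLR2S2 in all 4 libraries, at 5.81 and 6.2 at 4% O2 and 3.54 and 6.62 at 20% O2. Its difference of 0.24 ± 0.96 was smaller than its error, and that of POLR2S5 was 0.66 ± 0.68, with 2.13 in round 1 and -0.13 in round 2. With whole islands the POLR2S2 difference was -0.06, and per kb of island the differences were -0.41 for POLR2S2 and -0.14 for POLR2S5. Kcnma1 differed by 0.98 ± 0.49 for POLR2S5 and by -0.77 ± 0.5 for POLR2S2, with non-overlapping levels of opposite sign, and by 0.49 ± 0.5 for POLR2, where the levels overlapped. The POLR2S5 difference was -0.28 per kb of island and that of POLR2 -0.44. POLR2S2 islands covered only 0.7 to 0.9% of the Kcnma1 window, with 98 to 137 island reads. They lay within 1 kb of the listed Kcnma1 start in no library. Cacna1h, at 8.56 and 8.61 against 7.99 and 8.28 for POLR2S2, differed by 0.44 ± 0.28, or by 0.23 with whole islands and 0.08 per kb of island. Its differences were 0.47 ± 0.44 for POLR2, or -0.22 per kb of island, and 0.12 ± 0.33 for POLR2S5, or -0.03 with whole islands. Its strongest H3K9ac region ranked lower at 4% O2 by 10.8 percentile points (a difference of -10.8) without overlap. At the other Cacna1h regions called in all 4 libraries the O2 levels overlapped, with differences of both signs.

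Genes that act with these channels but are no members were taken from a list of 33. H3K9ac was called in all 4 libraries at 25 of them and POLR2S2 covered 3, Hcn2, Hcn3 and Lrrc26, the last of which had no H3K9ac. Over all protein-coding genes these shares were 58.9% and 18.5%. The list had 19 genes tested for POLR2, 24 for POLR2S5 and 18 for POLR2S2, with median log2 ratios of 0.32, 0.07 and 0.02, and none passed the adjusted threshold in edgeR. An unadjusted p under 0.05 was found at 2, 0 and 1 of them. Rest, the repressor that binds many neuronal channel genes, was acetylated with all polymerase forms in all 4 libraries, and its ratios were -0.05 ± 0.49 for POLR2, -0.75 ± 0.67 for POLR2S5 and -0.15 ± 1.11 for POLR2S2. Rcor1, a corepressor that acts with it, had ratios of 0.98 ± 0.4, 0.63 ± 0.41 and 1.32 ± 0.71.

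CTCF was called in all 4 libraries at 81 channel genes (60.4%), against 51.6% of all genes, and RAD21 at 68 (50.7%), against 34.5%. These shares are not adjusted for the length of the genes. Channel gene windows held 241 CTCF regions called in all 4 libraries, and 142 of them (58.9%) also held RAD21 in all 4, against 51.7% of all CTCF regions. Cacna1a and Cacna1c held 15 CTCF regions each, Kcnma1 14 and Scn8a 10. The median rank difference between O2 levels was 0.26 percentile points for CTCF regions at channel genes, against 0.12 over all regions and 1.16 over those in gene windows, and 0.74 for RAD21, against 0.2 and 2.06. CTCF regions ranked higher in both 4% O2 libraries at 10.4% and lower at 8.71% of channel regions, against 10.2% and 9.89% of all and 12.3% and 8.12% in gene windows. RAD21 regions did so at 20.3% and 20.3%, against 16.4% and 17.8% of all and 20% and 13.4% in gene windows.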

How the data were processed

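BWA, Picard, SICER and MACS2 and the build mm10 are named per the submitters' processing notes. Per the file headers, the authors used SICER to call islands of the polymerase forms and MACS2 to call peaks of the other antibodies. From their values, scores in the deposited MACS2 lists were taken for −log10 q-values, and scores in the deposited SICER lists for the read count of an island. List names pair each library with the input of its O2 level. Tool versions, caller settings and total library depth: not given in the sources used here. Lists under replicate 2 were summits or copies of a second list placed with replicate 1 and were counted once. Exact intervals shared by replicates were at most 0.97%.

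Windows were the RefSeq GRCm38.p6 gene with 1 kb on each side, with an overlap of at least 1 bp. Island counts were shared out by the length inside the window, rounded and tested in edgeR 4.0.16 (R 4.3.3; TMM, quasi-likelihood, Benjamini-Hochberg over all genes tested) on genes with an island in all 4 libraries. DESeq2 1.42.0, a replicate block, no TMM, no filter, whole islands, reads per kb, other windows, an upper-half score filter and leaving out each library were alternatives. Scripts were tested on simulated data. Replicate numbers mark sequencing rounds on different flow cells, per the file headers.

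The members and all lists were chosen with earlier results of these data known. Named genes were the 6 with the most island reads per kb for each form, the 4 largest and 4 smallest ratios of 1 sign in both rounds, any that passed, genes called at 1 O2 level only, the 4 largest and 4 smallest H3K9ac rank differences of 1 sign in both rounds, the 4 genes with the most CTCF regions and 8 O2-linked genes. Promoters were matched by symbol for 99 of the 134 members. Some genes are counted but not reported here by name, and are left out of the figures.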

Additional observations from a re-analysis of the deposited data

How the results depend on the processing

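No channel gene passed the adjusted threshold in edgeR with the replicate block, without TMM, without the filter, with whole islands, per kb of island or in DESeq2. With the replicate block the median log2 ratio was 0.13 for POLR2, 0.18 for POLR2S5 and -0.17 for POLR2S2. In that edgeR fit the unadjusted p was under 0.05 at 3, 3 and 6 channel genes. Over all genes tested it was under 0.05 at 554, 856 and 840. The block changed no call. Across genes, deviations of libraries with the same number from their group means had a correlation of 0.29 in POLR2, 0.38 in POLR2S5 and 0.38 in POLR2S2, from 2 pairs a form. Leaving out single libraries gave 0 to 1 passing POLR2S2 genes and 0 for the other forms, with medians of 0.02 to 0.57 for POLR2, 0.0 to 0.31 for POLR2S5 and -0.31 to 0.07 for POLR2S2. A lone library was then assumed to vary like the other level. The POLR2 median was -0.12 without TMM, with -0.3 over all genes, 0.34 without the filter and -0.37 per kb of island. For POLR2S5 it was 0.06 with whole islands and -0.15 per kb (all genes -0.2), and for POLR2S2 it was -0.09 without the filter, -0.1 with whole islands and -0.43 per kb. The H3K9ac rank difference was 0.86 and 0.49 within rounds, -0.15 with ranks over gene windows only and -1.68 to 3.05 over the leave-one-out settings.

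The counts of channel genes called in all 4 libraries kept within 1.5 times for H3K9ac, POLR2S5, CTCF and RAD21. With at least 50% of the island inside the window, POLR2 counted 24, POLR2S2 23, genes covered by POLR2S2 2 and genes acetylated and covered 2. With intervals scored above the median of their list only, POLR2 counted 18 and genes acetylated and covered 4. Leaving out each library gave 38 to 65 for POLR2 and 7 to 11 for genes acetylated and covered, the highest in each case without 20% O2 round 1.

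Calls at 1 O2 level were the least stable, and the counts that follow are given without the share over all genes. For genes called only at 4% O2, leaving out a library gave 0 to 5 for H3K9ac, 1 to 29 for POLR2, 0 to 12 for POLR2S5, 2 to 10 for POLR2S2, 0 to 4 for CTCF and 1 to 5 for RAD21. The highest counts came without 20% O2 round 2 for the polymerase forms and RAD21, without 4% O2 round 1 for H3K9ac and without 4% O2 round 2 for CTCF. For genes called only at 20% O2 it gave 2 to 4 for H3K9ac, 0 to 4 for POLR2, 2 to 3 for POLR2S5, 0 to 2 for POLR2S2, 0 to 8 for CTCF and 1 to 3 for RAD21. Here the 8 for CTCF came without 4% O2 round 1 and the 4 for H3K9ac without 4% O2 round 2. With intervals scored above the median only, genes called at 4% O2 only were 1 for H3K9ac, 2 for POLR2 and 4 for POLR2S2, and at 20% O2 only they were 0 for H3K9ac, 2 for POLR2S5 and 1 for RAD21. Without the flank the counts at 4% O2 only were 0 for POLR2, 1 for POLR2S2 and 1 for RAD21. With 5 kb on each side they were 0 for POLR2 at 4% O2 and 0 for H3K9ac at 20% O2. With 50% of the interval inside they were 0 for POLR2 at 4% O2 and 2 for POLR2S2 at 20% O2. The cause of these moves was not tested, except that with 1 library left at a level the call asks for fewer libraries.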
